A study of Homo sapiens with 15 samples.

Results

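The third RNA-seq library of 3 gene knockdowns in NTERA2 cells was set against the first 2 libraries of the same knockdown. The knockdowns were siIGF2BP1, siSRF and siFOXM1, so the third libraries, 3 in all, were compared with 6 first libraries, out of 15 libraries in the series. The libraries were chosen because earlier readings of the same counts showed the third libraries standing apart, so the size of this contrast is given as a description and carries no p-value. Of 28207 genes in the count table, 18066 passed the filter on low counts in these 9 libraries. A gene was put in the group alike in all 3 siRNAs when the third library was at least 1 log2 unit above, or below, the mean of the first 2 and outside their range in every siRNA, and when it was called in a fit with siRNA as a block. This rule gave 228 genes higher and 237 genes lower in the third libraries. The members just inside the limit were IL17RE, TGFBI and CLEC7A, with a smallest difference of 1.002, 1.004 and 1.007 log2 units, and PDE5A, TMEM106A and FZD6 fell just outside at 0.9985, 0.9982 and 0.996.

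NTERA2 is a human embryonal carcinoma line of testicular origin. The cells were grown with 10% serum and received siRNA 2 times over 7 days, and 3 libraries were deposited for each siRNA. The treated groups were siIGF2BP1, against an RNA-binding protein that stabilises bound mRNAs, siSRF, against the serum response factor, siFOXM1, against a transcription factor of the cell division programme, and siIQGAP3, against a scaffold protein. siControl was the control siRNA, and siControl and siIQGAP3 served here as libraries that the choice of genes did not use. All libraries came from 1 cell line, and no source used here gives the siRNA sequences. The columns carry the siRNA and no replicate number, so the third library only means the last column of each siRNA, and no label says that the third libraries share a culture, a day or a sequencing run. Nothing says that the 3 libraries of a siRNA came from separate cultures, so their spread may be technical.

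Embryonal carcinoma cells resemble the undifferentiated cells of the early embryo and keep themselves so through transcription factors such as SOX2 together with the RNA-binding protein LIN28A. Retinoic acid turns NTERA2 cells into neuron-like and other cells, and CYP26 enzymes, which break retinoic acid down, are among the genes that retinoic acid switches on. Immediate early genes such as FOS and EGR1 answer serum within minutes through serum response factor bound at CArG boxes, while inflammatory genes such as ICAM1 are switched on through NF-kB and antiviral genes such as IFIT1 through interferon-stimulated response elements.

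The sequences below are the 250 bases before the start of 6 genes on which the results turn, shown because these genes carry the DNA motifs of the programmes just named. They are from RefSeq, build GRCh38.p14, read 5′ to 3′ on the gene's strand, and capitals mark the motif. CArG boxes are marked for EGR1 (chr5:138465229-138465478, plus strand). The NF-kB type motif, searched as GGNNNTTCC on both strands, is marked for ICAM1 (chr19:10270870-10271119, plus strand), CXCL6 (chr4:73836428-73836677, plus strand) and UBD (chr6:29559733-29559982, minus strand). The interferon-stimulated response element, searched as GAAANNGAAA on both strands, is marked for IFIT1 (chr10:89392373-89392622, plus strand) and IFIT3 (chr10:89327747-89327996, plus strand).
EGR1: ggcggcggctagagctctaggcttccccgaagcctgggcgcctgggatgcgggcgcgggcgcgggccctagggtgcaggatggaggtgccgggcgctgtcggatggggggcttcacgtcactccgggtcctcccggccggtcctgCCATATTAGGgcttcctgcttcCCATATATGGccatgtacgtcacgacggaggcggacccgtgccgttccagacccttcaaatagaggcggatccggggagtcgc
ICAM1: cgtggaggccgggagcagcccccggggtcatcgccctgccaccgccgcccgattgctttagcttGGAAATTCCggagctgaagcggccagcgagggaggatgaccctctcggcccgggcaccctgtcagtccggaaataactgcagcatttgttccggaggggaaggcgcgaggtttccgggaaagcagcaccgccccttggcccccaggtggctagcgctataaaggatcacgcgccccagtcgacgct
CXCL6: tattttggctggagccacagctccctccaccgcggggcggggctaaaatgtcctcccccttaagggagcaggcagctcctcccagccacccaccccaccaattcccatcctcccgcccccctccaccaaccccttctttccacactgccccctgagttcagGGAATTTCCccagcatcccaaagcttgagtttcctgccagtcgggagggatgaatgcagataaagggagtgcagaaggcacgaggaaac
UBD: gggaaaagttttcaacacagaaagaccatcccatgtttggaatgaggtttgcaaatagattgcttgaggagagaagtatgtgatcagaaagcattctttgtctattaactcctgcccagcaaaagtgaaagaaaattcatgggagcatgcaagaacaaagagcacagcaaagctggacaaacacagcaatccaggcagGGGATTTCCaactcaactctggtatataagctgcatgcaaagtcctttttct
IFIT1: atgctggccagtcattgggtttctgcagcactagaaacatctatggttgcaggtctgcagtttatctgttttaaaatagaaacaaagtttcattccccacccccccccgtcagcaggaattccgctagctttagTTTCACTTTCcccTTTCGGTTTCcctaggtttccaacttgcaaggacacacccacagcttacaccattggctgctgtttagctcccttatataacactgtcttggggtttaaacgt
IFIT3: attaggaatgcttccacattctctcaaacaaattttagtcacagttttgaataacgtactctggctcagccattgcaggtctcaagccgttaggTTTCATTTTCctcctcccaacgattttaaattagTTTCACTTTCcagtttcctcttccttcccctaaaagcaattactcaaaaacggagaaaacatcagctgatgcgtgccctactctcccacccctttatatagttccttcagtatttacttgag

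A 300-base window around the start was at hand for 13378 of the 18066 genes, and shares were counted over those windows. The interferon motif was in 378 windows (2.83%), the NF-kB type motif in 3005 (22.5%) and a CArG box in 158 (1.18%). Among the genes alike and higher in the third libraries, 39 of 160 windows held the NF-kB type motif (24.4%), close to the share of all windows. Among the genes alike and lower, 8 of 165 held a CArG box (4.85%). Of the genes higher in siFOXM1 only, 9 of 96 held the interferon motif (9.38%), and of the genes lower in siFOXM1 only, 0 of 181. These are letter matches and not binding sites. Each motif was searched by itself, and overlaps between motifs were not removed.

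The siRNA targets were read first, as a check of the labels. IGF2BP1 stood at 213 CPM (a count scaled to library size after TMM normalisation) in the third siIGF2BP1 library, against 166 and 169.5 CPM in the first 2, and between 680.5 and 1080 CPM in the siSRF and siFOXM1 libraries. SRF stood at 5.95 CPM in the third siSRF library, against 6.67 and 7.04 CPM in the first 2. FOXM1 stood at 198 CPM in the third siFOXM1 library, against 153 and 177 CPM in the first 2, and IQGAP3 stood at 48.9 to 52.1 CPM in the siIQGAP3 libraries. In siControl the 4 targets stood at 786 to 1039, 82.8 to 92.2, 773 to 920 and 82.5 to 126 CPM. Each target was thus lower in all 3 libraries of its own siRNA than in any siControl library, but 3 of the 4 were as low or lower under another siRNA. SRF was also low in siIGF2BP1, at 5.30 CPM in the third library, against 7.62 and 7.92 CPM in the first 2. IQGAP3 stood at 4.42 to 13.9 CPM in the third libraries of siIGF2BP1, siSRF and siFOXM1 and at 7.86 to 24.5 CPM in the first ones, below every siIQGAP3 library. FOXM1 stood at 132 CPM in the third siSRF library, against 303 and 318 CPM in the first 2, so the third siSRF library was below every siFOXM1 library. All 4 targets, with POU5F1, NANOG, KLF4, MYC and A1BG, are the 9 genes of 20407 for which the deposited count and the deposited normalised value disagree, so their values are uncertain.

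The third libraries of the 3 knockdowns lay nearer to one another than to the first 2 libraries of their own siRNA. The distance between libraries, the root mean square difference in log2 CPM over the 18066 genes, was 0.537 to 0.675 between the third libraries. It was 0.870 to 1.19 between the third library of a siRNA and its first 2, and 0.263 to 0.295 between the first 2 libraries of a siRNA. The first libraries did not form 1 group: those of siIGF2BP1 and siSRF lay 0.319 to 0.335 apart, and those of siFOXM1 lay 0.890 to 0.925 from both. On the first principal component, with 60.05% of the variance, the third libraries of siIGF2BP1, siSRF and siFOXM1 stood at 53.4, 90.8 and 28.1. The first 2 libraries stood at -59.7 and -60.1 for siIGF2BP1, at -62.6 and -62.3 for siSRF, and at 37.0 and 35.4 for siFOXM1. Of the sum of squares over the 6 means of siRNA and library set, the set took 47.9%, the siRNA 15.9% and their interaction 36.2%. Library totals were 38707472 to 43232626 counts, and the third libraries were the deepest of each siRNA.

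**Figure D1:**
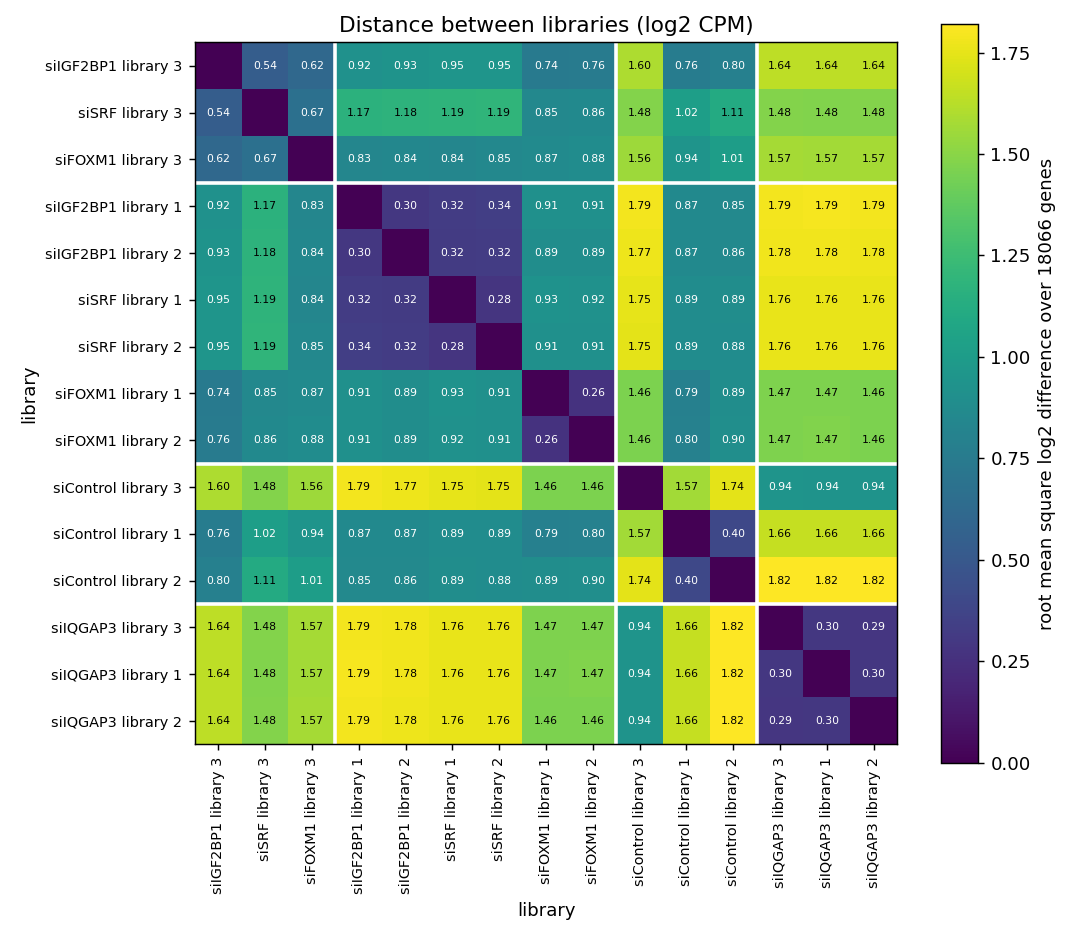
Distance between all 15 libraries, as the root mean square log2 CPM difference over 18066 genes; white lines part the third libraries of the 3 knockdowns, their first 2 libraries, siControl and siIQGAP3. The third libraries of the knockdowns lie 0.537 to 0.675 apart, and the third siControl library lies 1.57 to 1.74 from the first 2 siControl libraries.

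Summed markers of the labelled cell type, of neurons, of endoderm and of blood differed between the library sets in 1 direction in all 3 siRNAs, and those of other cell types did not. Of 15 embryonal carcinoma markers, ZFP42 was under 1 CPM in all 9 libraries, and the sum of the 13 markers on which the tables do not disagree was 443, 486 and 329.9 CPM in the third libraries of siIGF2BP1, siSRF and siFOXM1. It was 501 and 534 CPM in the first siIGF2BP1 libraries, 510.2 and 534 CPM in the first siSRF libraries, and 1270 and 1300 CPM in the first siFOXM1 libraries. The same sum was 5082 to 5223 CPM in siIQGAP3. CDH1, among these markers, went the other way, at 8.18 to 15.9 CPM in the third libraries against 4.02 to 6.51 CPM in the first ones. The sum of 10 fibroblast markers was 11290, 9640 and 7267 CPM in the third libraries of siIGF2BP1, siSRF and siFOXM1, against 5534 to 5714, 4976 to 4989 and 8812 to 8984 CPM in the first 2. COL3A1, a fibrillar collagen gene of mesenchymal cells, stood at 3836 and 3321 CPM in the third siIGF2BP1 and siSRF libraries, against 2342 to 2429 CPM in the first ones. In siFOXM1 it did not rise, at 2562 CPM against 2672 and 2608 CPM. FAP, another of these markers, was lower in all 3 siRNAs, at 5.13 to 8.05 CPM in the third libraries against 14.8 to 27.8 CPM. The sum of 10 neuron markers was 234, 528.5 and 232 CPM in the third libraries, against 127 to 158 CPM in the first ones, with STMN2 under 1 CPM in all 9. The rise in that sum rested largely on NEFL and MAP2. NEFL stood at 106, 274 and 115 CPM in the third libraries, against 18.4 to 30.5 CPM in the first ones. ELAVL3, another of the markers, went the other way, at 1.59 to 2.64 CPM against 4.06 to 7.16 CPM. The sum of 10 blood and endothelial markers was 3.48 to 3.87 CPM in the third libraries, against 6.72 to 7.88 CPM in the first ones, and PTPRC, CD3E, LYZ, HBB and PECAM1 were under 1 CPM in all 9. Neural progenitor markers summed to 196, 214 and 146 CPM in the third libraries of siIGF2BP1, siSRF and siFOXM1, against 190.1 and 202, 189 and 207, and 399 and 384 CPM in the first 2. Trophoblast markers summed to 49.9, 79.5 and 55.2 CPM in the third libraries, against 33.4 to 33.96, 38.5 to 39.6 and 64.9 to 68.0 CPM in the first 2. Endoderm markers summed to 52.3 to 71.8 CPM in the third libraries, against 76.5 to 85.9 CPM in the first ones. The part of such cells in the results below was not tested, and in bulk RNA fewer cells of a type and less RNA per cell cannot be told apart.

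With siRNA as a block, 3218 genes were called higher in the third libraries (17.8% of 18066) and 3487 lower (19.3%). These calls only choose genes, since the contrast was picked on the same counts. They rest on counting the first 2 libraries of a siRNA as separate: with those 2 summed to 1 library, 0 genes were called higher and 1 lower. Without the third siFOXM1 library 5772 were called higher and 5963 lower. Without 1 other library the numbers lay between 1974 and 2655 higher and between 2485 and 3068 lower, with 2104 higher without siIGF2BP1 library 2, and 2030, 1986 and 1974 higher without siSRF libraries 1, 2 and 3. Scaling by library size alone shifted the median difference of all genes to 0.109 log2 and gave 4335 higher and 2394 lower.

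Taken 1 siRNA at a time, the third library was at least 1 log2 unit higher for 8.55% of genes and lower for 7.71% in siIGF2BP1, 13.9% and 11.5% in siSRF, and 5.84% and 8.28% in siFOXM1. The genes that moved were largely shared by siIGF2BP1 and siSRF and not by siFOXM1. Between siIGF2BP1 and siSRF, 1323 genes were higher in the third libraries of both, 1030 were lower in both and 5 went opposite ways, and the differences had a Pearson r of 0.88 over 18066 genes. Between siIGF2BP1 and siFOXM1, 245 were higher in both, 323 lower in both and 551 went opposite ways (r = 0.0463). Between siSRF and siFOXM1 the numbers were 342, 362 and 673 (r = 0.0755). These correlations run across genes, and genes are not independent replicates. The libraries may share effects of depth or base composition, which was not tested.

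**Figure D2:**
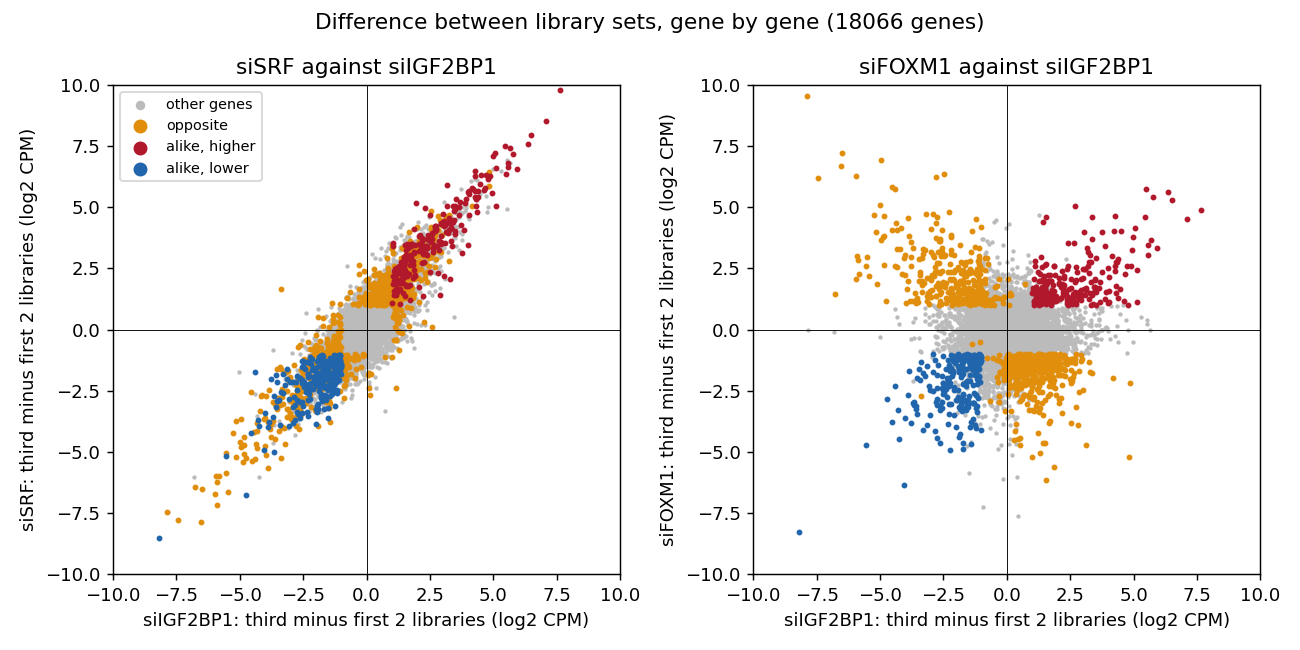
Difference between the third library and the mean of the first 2 (log2 CPM) for 18066 genes, siSRF against siIGF2BP1 on the left and siFOXM1 against siIGF2BP1 on the right. Points lie along the diagonal on the left (r = 0.88) and in all 4 quadrants on the right (r = 0.0463), where the 228 and 237 genes alike in all 3 siRNAs and the 784 with opposite differences are coloured.

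The 12 genes with the highest blocked log2 difference among those alike and averaging 5 CPM or more in either library set were SLC5A7, UBD, F2RL2, PTHLH, LOC101929322, IGFN1, SLC7A14, SV2B, CXCL6, SLCO2B1, RRAD and ICAM1, at 5.40 to 7.73. ICAM1, a cell surface protein that white blood cells hold on to, stood at 142, 379 and 137 CPM in the third libraries of siIGF2BP1, siSRF and siFOXM1. In the first 2 libraries it stood at 2.99 and 2.94 CPM, 3.26 and 3.49 CPM, and 17.7 and 15.8 CPM in the same order of siRNAs. The gap follows from the rule that chose ICAM1, and the blocked log2 difference of 5.40 describes its size.

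UBD, a ubiquitin-like protein made in inflammation, stood at 10.6, 30.1 and 11.6 CPM in the third libraries of siIGF2BP1, siSRF and siFOXM1. All 6 first libraries had 0.0251 to 0.209 CPM of UBD. CXCL6, a chemokine for neutrophils, stood at 14.6, 40.5 and 16.3 CPM in the third libraries, against 0.150 to 0.953 CPM in the first ones. For both genes the third siSRF library was the highest and the third siIGF2BP1 and siFOXM1 libraries were close to each other. PTHLH, a secreted relative of parathyroid hormone, stood at 41.2, 120.2 and 43.2 CPM in the third libraries, against 0.327 to 1.09 CPM in the first ones. F2RL2, a receptor of the protease-activated family, stood at 28.5, 83.5 and 28.1 CPM in the third libraries, against 0.100 to 1.80 CPM in the first ones. SLC5A7, the choline transporter of cholinergic neurons, stood at 15.7, 44.4 and 13.7 CPM in the third libraries. In the first libraries SLC5A7 had no count in 3 of 6 and at most 0.424 CPM, so its fitted difference depends on the prior count and is no bound.

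Among the genes alike and higher, the third siSRF library stood highest as a rule, and the ratios between the third libraries, drawn from values that the rule used, are given as a description. Over the genes alike and higher that averaged 2 CPM or more over the pair, the third siIGF2BP1 library stood at a median of 0.409 times the third siSRF library (144 genes, quartiles 0.367 and 0.463). The third siFOXM1 library stood at 0.434 times the third siSRF library (150 genes, quartiles 0.380 and 0.519) and at 1.02 times the third siIGF2BP1 library (128 genes). The tails were wide: the 5th and 95th percentiles were 0.302 and 0.725, 0.318 and 1.08, and 0.783 and 2.25 for the 3 ratios in that order. Over all genes of that level the medians were 1.01, 0.983 and 0.975. For the genes alike and lower the medians were 1.19, 1.06 and 0.914. The cause of the ratios was not tested.

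The 12 genes lowest by the same rule were CYP26A1, BCYRN1, TNFSF10, SOX21, FOS, SOX3, CYP26B1, GDF3, COLCA1, PPP1R1B, PCP4 and GJB2, with blocked log2 differences of -8.36 to -3.08. CYP26A1 stood at 1.32, 1.73 and 1.68 CPM in the third libraries of siIGF2BP1, siSRF and siFOXM1. In the first 2 libraries it stood at 378 and 414 CPM, 657 and 632.5 CPM, and 519 and 549 CPM. CYP26A1 was the lowest by this same contrast, and the blocked log2 difference of -8.36 describes its size. CYP26B1, the related enzyme, stood at 30.3, 43.6 and 27.7 CPM in the third libraries, against 316 to 541 CPM in the first ones.

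Of the 24 tested retinoic acid genes, 2 were called higher (ALDH1A1 and TGM2) and 6 lower in the third libraries, beside 17.8% and 19.3% of all genes. Their median blocked difference was -0.04 log2, near the median of all genes. Without the third siFOXM1 library 9 were higher and 8 lower, near the shares of all genes there (5772 and 5963 of 18066). DHRS3, a retinal reductase, was among the 6, at 45.2, 101 and 43.3 CPM in the third libraries, against 126 to 164 CPM in the first ones. RARB, a retinoic acid receptor, was at 15.9 to 23.1 CPM, against 24.99 to 28.3 CPM. ALDH1A1, which makes retinoic acid, was at 14.2 to 19.8 CPM in the third libraries, against 6.47 to 9.34 CPM in the first ones. TNFSF10, the apoptosis ligand TRAIL, stood at 1.90, 1.90 and 1.76 CPM in the third libraries, against 22.1 to 45.7 CPM in the first ones.

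**Figure D3:**
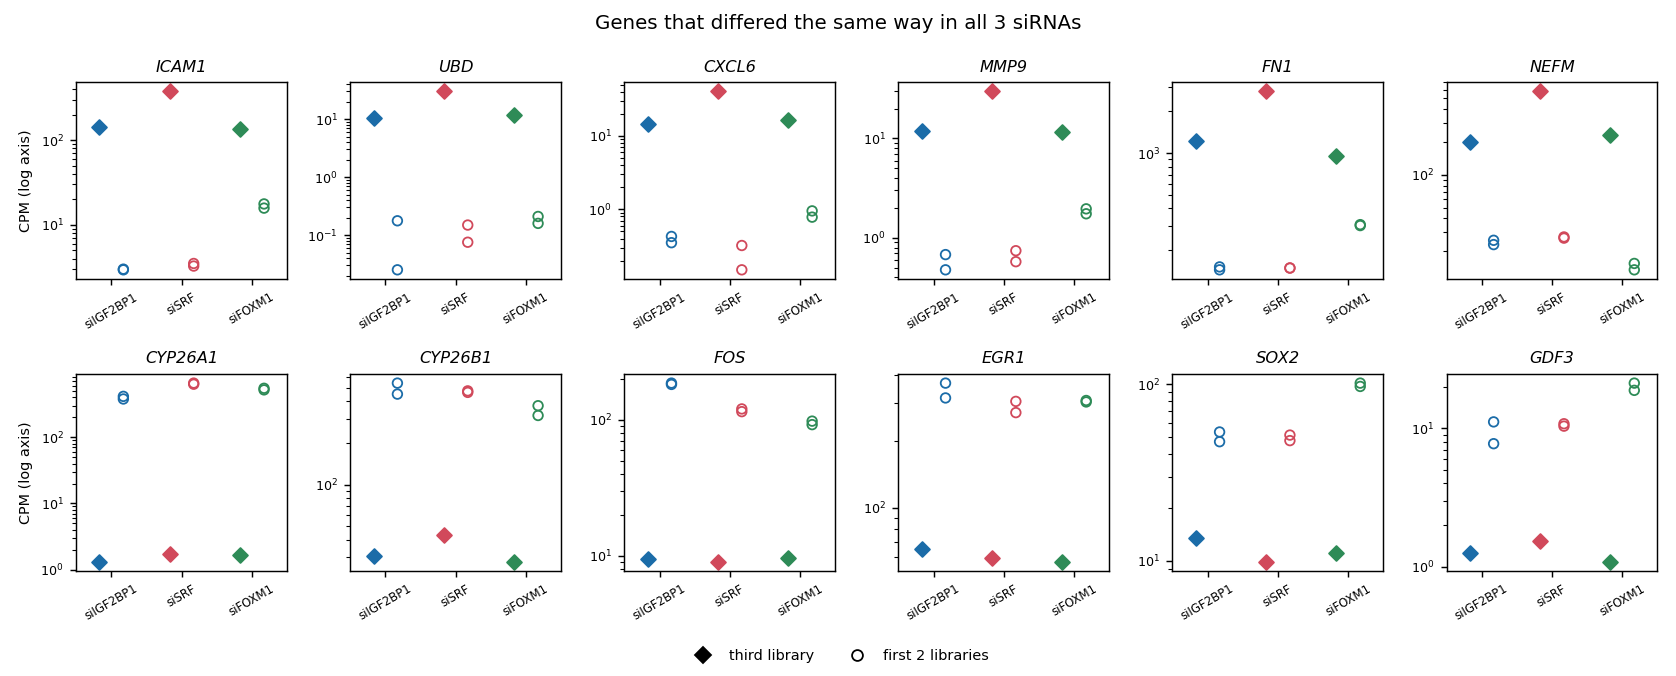
CPM on a log axis of 12 genes alike in all 3 siRNAs, with the third library (diamond) left of the first 2 (open circles) within siIGF2BP1, siSRF and siFOXM1. The 6 genes in the upper row are higher in the third library of every siRNA and the 6 in the lower row are lower, as with ICAM1 at 137 to 379 CPM against 2.94 to 17.7 CPM and CYP26A1 at 1.32 to 1.73 CPM against 378 to 657 CPM.

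Of 24 immediate early genes tested, 3 were called higher and 14 lower in the third libraries, beside 17.8% and 19.3% of all genes, with medians of -0.62 log2 in siIGF2BP1, -0.83 in siSRF and -0.49 in siFOXM1. Leaving out the third siIGF2BP1 or siSRF library left 0 called higher, beside 2288 and 1974 of all 18066 genes. Without the 3 members on which the tables disagree 12 of 21 were lower. FOS, a partner of JUN proteins in the AP-1 transcription factor, stood at 9.46, 9.05 and 9.57 CPM in the third libraries of siIGF2BP1, siSRF and siFOXM1. In the first 2 libraries it stood at 182 and 187 CPM, 115 and 120.4 CPM, and 92.3 and 97.9 CPM. EGR1, whose promoter with 2 CArG boxes is printed above, stood at 65.2, 59.3 and 56.99 CPM in the third libraries, against 270.1 to 368 CPM in the first ones. Its differences within siIGF2BP1, siSRF and siFOXM1 were -2.38, -2.27 and -2.42 log2. IER2 followed at 80.9 to 93.3 CPM in the third libraries, against 219 to 261 CPM in the first ones. JUNB, another AP-1 member, stood at 96.9 to 113 CPM, against 173 to 259 CPM. NR4A3, KLF6 and FOSL1 were the 3 called higher with all 9 libraries. In this list 2 of 18 promoter windows held a CArG box. Of 30 cytoskeletal targets of serum response factor, 4 were called higher and 5 lower, at a median blocked difference of 0.108 log2. Both counts were under the shares of all genes.

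Of 29 genes of the undifferentiated state tested, 2 were called higher and 15 lower in the third libraries, beside 17.8% and 19.3% of all genes, with medians of -0.49 log2 in siIGF2BP1, -0.89 in siSRF and -1.13 in siFOXM1, and 13 of 26 were lower without the 3 on which the tables disagree. SOX2 stood at 13.4, 9.90 and 11.1 CPM in the third libraries, against 47.2 and 53.6, 47.9 and 51.5, and 96.9 and 101 CPM in the first 2. LIN28A, which blocks let-7 microRNA maturation, stood at 57.04, 27.9 and 19.4 CPM in the third libraries, against 144 and 157, 139 and 148, and 492 and 506 CPM in the first 2. GDF3, a ligand of the TGF-beta family made by such cells, stood at 1.25, 1.53 and 1.09 CPM, against 7.75 to 21.2 CPM. The 2 called higher were KLF5 and LIN28B. SOX21 and SOX3, transcription factors of neural progenitors, were lower too, SOX21 at 0.284 to 1.501 CPM against 9.49 to 12.5 CPM. NEFM and NEFL, which code for neurofilament subunits, were higher. NEFM stood at 199, 581 and 230.2 CPM in the third libraries, against 13.6 to 27.1 CPM in the first ones. But of 18 neuron genes tested 4 were called higher, near the 17.8% of all genes, and 1 lower. Without the third siFOXM1 library 7 were higher and 7 lower, beside 5772 and 5963 of all 18066 genes.

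Known NF-kB target genes of inflammation made up a list chosen after the leading genes had been seen, so its count is no independent evidence. Of 27 tested, 20 were called higher and 0 lower, beside 17.8% and 19.3% of all genes. In all 3 siRNAs 10 were alike and higher, beside 1.26% of all genes. Its median difference was 1.34 log2 in siIGF2BP1, 2.29 in siSRF and 0.89 in siFOXM1. MMP9, a matrix-degrading enzyme, stood at 11.8, 29.8 and 11.6 CPM in the third libraries, against 0.478 to 1.96 CPM in the first ones. CCL2, a chemokine for monocytes, stood at 28.6, 59.5 and 27.1 CPM, against 11.2 to 18.3 CPM. In this list 17 of 20 promoter windows held the NF-kB type motif (85.0%), beside 22.5% of all windows. That share follows from a list built of known NF-kB targets and says nothing about these libraries.

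Targets of the stress regulator p53 were higher, with 17 of 28 called higher and 1 lower in the third libraries. In this paragraph, counts from all 9 libraries stand beside 17.8% of all genes called higher and 19.3% called lower. CDKN1A, which halts the cell cycle, stood at 147, 285 and 153 CPM in the third libraries, against 54.1 to 68.3 CPM in the first ones. MDM2, which degrades p53, stood at 71.8, 136 and 103 CPM, against 44.5 to 57.2 CPM. The genes of mesenchymal cells and matrix had 17 of 30 called higher and 2 lower, with FN1, fibronectin, at 1215, 2791 and 949.9 CPM in the third libraries against 144 to 305 CPM in the first ones. That list had a median difference of 0.72 log2 in siIGF2BP1, 0.80 in siSRF and 0.02 in siFOXM1. Leaving out the third siIGF2BP1 library left 9 members called higher, beside 2288 of all 18066 genes. Of 16 NRF2 and metal response genes 8 were called higher and 2 lower, and of 29 genes of the unfolded protein and integrated stress responses 13 were higher and 5 lower, the chaperone HSPA5 among the higher; both lower counts were at or under the 19.3% of all genes. Without the third siIGF2BP1 library that last list had 6 higher and 9 lower, beside 2288 and 2702 of all 18066 genes.

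Cell cycle genes were called lower or not called in the third libraries, and their median differences were smaller in siFOXM1 than in siIGF2BP1 and siSRF, a difference between siRNAs that was not tested. Of 36 G1/S and replication genes 0 were called higher and 22 lower, beside 17.8% and 19.3% of all genes. Their medians were -0.99 log2 in siIGF2BP1, -1.61 in siSRF and -0.15 in siFOXM1. Of 39 G2/M genes 0 were called higher and 25 lower, with medians of -0.63, -1.29 and -0.21 log2. MCM5, a subunit of the replicative helicase, stood at 66.7, 35.3 and 72.2 CPM in the third libraries, against 184 and 189.9, 206 and 211, and 106 and 110.4 CPM in the first 2. KIF2C, a mitotic kinesin, stood at 59.7, 43.3 and 65.2 CPM, against 112 to 125 CPM, and its difference of -0.90 log2 in siFOXM1 was near the -0.94 log2 in siIGF2BP1. Without the third siFOXM1 library all 36 and all 39 were called lower, beside 5963 of all 18066 genes. Without the third siIGF2BP1 library 6 and 15 were, beside 2702 of all 18066 genes, so the G1/S count was then near the share of all genes. Of 21 histone genes, whose near-identical copies make the counts uncertain, 0 were higher and 9 lower, beside 17.8% and 19.3% of all genes. Leaving out the third library of either siIGF2BP1 or siSRF left 4 lower, not far above the shares of all genes there (2702 and 2596 of 18066).

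Genes of energy and lipid metabolism and of the ribosome were also lower. In this paragraph, counts from all 9 libraries with TMM scaling stand beside 17.8% of all genes called higher and 19.3% called lower. Of 33 cholesterol and lipid synthesis genes, 0 were called higher and 23 lower, and unlike the cell cycle genes they were lowest in siFOXM1, with medians of -0.39, -0.50 and -0.69 log2 in siIGF2BP1, siSRF and siFOXM1. MVK, mevalonate kinase, stood at 16.2, 14.8 and 14.6 CPM in the third libraries, against 31.6 to 38.0 CPM in the first ones. Of 30 nuclear genes of oxidative phosphorylation 0 were higher and 23 lower. Leaving out the third siSRF library left 15 lower, beside 2596 of all 18066 genes. Library size alone as the scale also gave 15 lower, beside 2394 of all genes. COX8A, a subunit of the last complex of the respiratory chain, stood at 92.6 to 106 CPM against 167 to 251 CPM. Of 58 ribosomal protein genes, whose pseudogenes can share reads, 1 was higher and 32 lower with a median of -0.22 log2. With library size alone as the scale 3 were higher and 20 lower with a median of -0.11, beside 4335 and 2394 of all 18066 genes. RPS15 stood at 466, 388 and 504 CPM in the third libraries, against 970.1 to 1225 CPM in the first ones. ID1 and ID3, inhibitors of differentiation switched on by BMP signals, were lower with 12 of 20 genes of their list, 1 being higher. Of 34 hypoxia and glycolysis genes 2 were higher and 15 lower. With the third siIGF2BP1 library left out 7 were lower, a share not far above that of all genes there (2702 of 18066). In the remaining lists, the HOX genes had 3 of 39 called in each direction, although the third siControl library stood 3.40 log2 below the first 2 at their median. With the third siFOXM1 library left out, 13 HOX genes were higher and 18 lower, beside 5772 and 5963 of all 18066 genes.

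**Figure D4:**
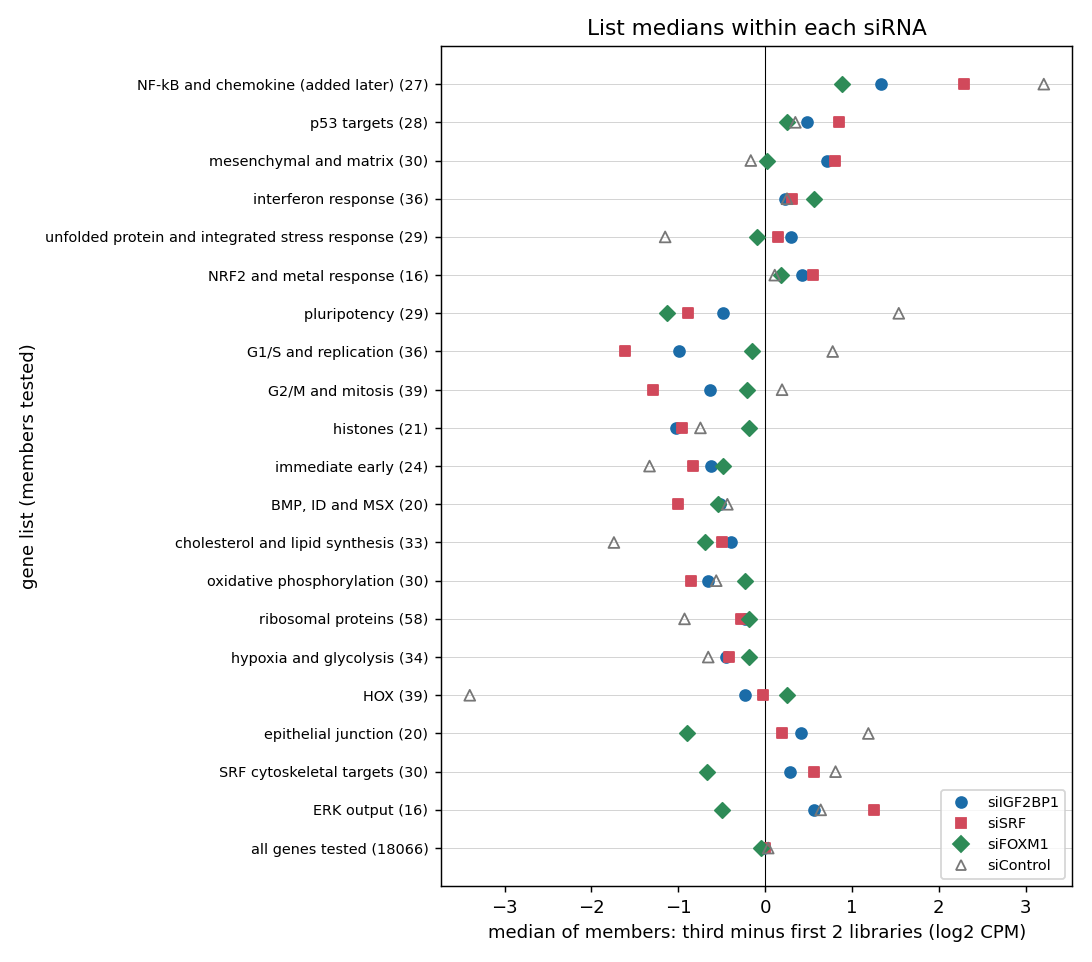
Median difference between the third library and the first 2 (log2 CPM) over the tested members of 20 gene lists and over all 18066 genes, within siIGF2BP1, siSRF, siFOXM1 and siControl. The G1/S median lies at -0.99 and -1.61 in siIGF2BP1 and siSRF and at -0.15 in siFOXM1, and the pluripotency median is below 0 in the 3 knockdowns and 1.54 in siControl.

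Genes that differed in 1 siRNA only were those past 1 log2 unit there and under 0.5 in both others. There were 37 higher and 38 lower in siIGF2BP1, 175 and 139 in siSRF, and 136 and 251 in siFOXM1. The antiviral IFIT genes, which block foreign RNA, led the genes higher in siFOXM1 only. IFIT1 stood at 137 CPM in the third siFOXM1 library, against 6.20 and 5.88 CPM in the first 2. In the third libraries of siIGF2BP1 and siSRF it stood at 6.33 and 5.60 CPM, against 7.36 to 8.51 CPM in the first ones. IFIT3 stood at 72.8 CPM in the third siFOXM1 library, against 3.28 and 3.998 CPM in the first 2, and IFIT2 at 45.4 CPM against 2.28 and 2.82 CPM. Both promoters printed above, of IFIT1 and IFIT3, hold 2 interferon-stimulated response elements.

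Other interferon response genes moved in more than 1 siRNA. Of 36 tested, 16 were called higher, beside 17.8% of all genes, and 6 lower, a share no higher than the 19.3% of all genes. Of the 36, 5 belonged to the genes higher in siFOXM1 only, beside 0.753% of all genes. IFIH1, a sensor of viral RNA, stood at 1.74, 5.57 and 13.3 CPM in the third libraries of siIGF2BP1, siSRF and siFOXM1, against 0.287 to 0.847 CPM in the first ones. MX1, an antiviral GTPase, stood at 8.86 and 20.3 CPM in the third libraries of siIGF2BP1 and siSRF, against 1.38 to 1.71 CPM in the first ones. In siFOXM1 it stood at 8.42 CPM in the third library, against 10.4 and 9.43 CPM in the first 2. The 6 lower were IFITM1, IFITM2, IFITM3, PSMB8, PSMB9 and HLA-C.

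The largest differences of 1 siRNA only were smaller outside siFOXM1. In siIGF2BP1, AMBN, which codes for an enamel protein, stood at 31.9 CPM in the third library, against 10.9 and 9.83 CPM in the first 2, and DKK1, a secreted WNT inhibitor, at 20.3 CPM against 9.34 and 9.02 CPM. In siSRF, CDH10, a cadherin, stood at 11.2 CPM in the third library, against 2.96 and 3.22 CPM, and WNT4, a secreted signalling protein, at 2.29 CPM against 10.8 and 11.3 CPM. In siFOXM1 the genes lower in the third library were led by CNTN2, a neuronal adhesion protein, at 0.631 CPM against 45.6 and 42.9 CPM, and TNNT2, cardiac troponin T, at 0.261 CPM against 10.8 and 10.8 CPM. PMEL, a melanosome protein, stood at 8.09 CPM, against 206 and 208 CPM. The first siFOXM1 libraries were the ones that stood apart for these genes, since CNTN2 was at 0.830 to 1.14 CPM in all siIGF2BP1 and siSRF libraries.

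Other genes differed in opposite directions between siRNAs. In 784 genes (4.34%) the third library was at least 1 log2 unit higher in 1 siRNA and lower in another, a rule that asks for 2 siRNAs, where the rule for the 465 genes alike asks for all 3. Of these, 228 were higher in siIGF2BP1 and siSRF and lower in siFOXM1, 214 were the reverse, and in most of the others 1 siRNA missed the limit. The genes in this paragraph were chosen after their values were seen. H19, an imprinted noncoding RNA, stood at 123 CPM in the third siIGF2BP1 library, against 2.42 and 7.77 CPM in the first 2. It stood at 300.2 CPM in the third siSRF library, against 3.58 and 7.11 CPM, and at 111 CPM in the third siFOXM1 library, against 4139 and 4054 CPM. The third libraries thus lay between 111 and 300.2 CPM, where the first libraries spanned 2.42 to 4139 CPM. H19 lies in a locus with overlapping and antisense genes, and the strand setting of the counting is not given in the sources used here, so its count is uncertain to that degree. KRT8, a keratin of simple epithelia, stood at 602, 1295 and 558 CPM in the third libraries, against 91.3 to 102 CPM in the first siIGF2BP1 and siSRF libraries and 1895 and 1906 CPM in the first siFOXM1 ones.

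The 214 genes of the reverse pattern had the third library lower in siIGF2BP1 and siSRF and higher in siFOXM1. Those named here were also chosen after their values were seen. IRS4, an adaptor of insulin receptor signalling, stood at 0.313 and 0.284 CPM in the third libraries of siIGF2BP1 and siSRF, against 61.8 to 72.7 CPM in the first ones. In siFOXM1 it stood at 37.8 CPM in the third library, against 0.450 and 0.470 CPM in the first 2. POU4F1, a transcription factor of sensory neurons, stood at 0.201 and 0.0656 CPM in the third libraries of siIGF2BP1 and siSRF, against 22.9 to 28.3 CPM, and at 19.5 CPM in the third siFOXM1 library, against 0.185 and 0.105 CPM. FOXC1, a transcription factor of mesoderm, stood at 12.8, 8.81 and 86.9 CPM in the third libraries, against 139 to 158 CPM in the first siIGF2BP1 and siSRF libraries and 11.4 and 11.9 CPM in the first siFOXM1 ones. For IRS4, POU4F1 and FOXC1 the third siFOXM1 library was near the first libraries of siIGF2BP1 and siSRF. The third libraries of siIGF2BP1 and siSRF were near the first libraries of siFOXM1.

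**Figure D5:**
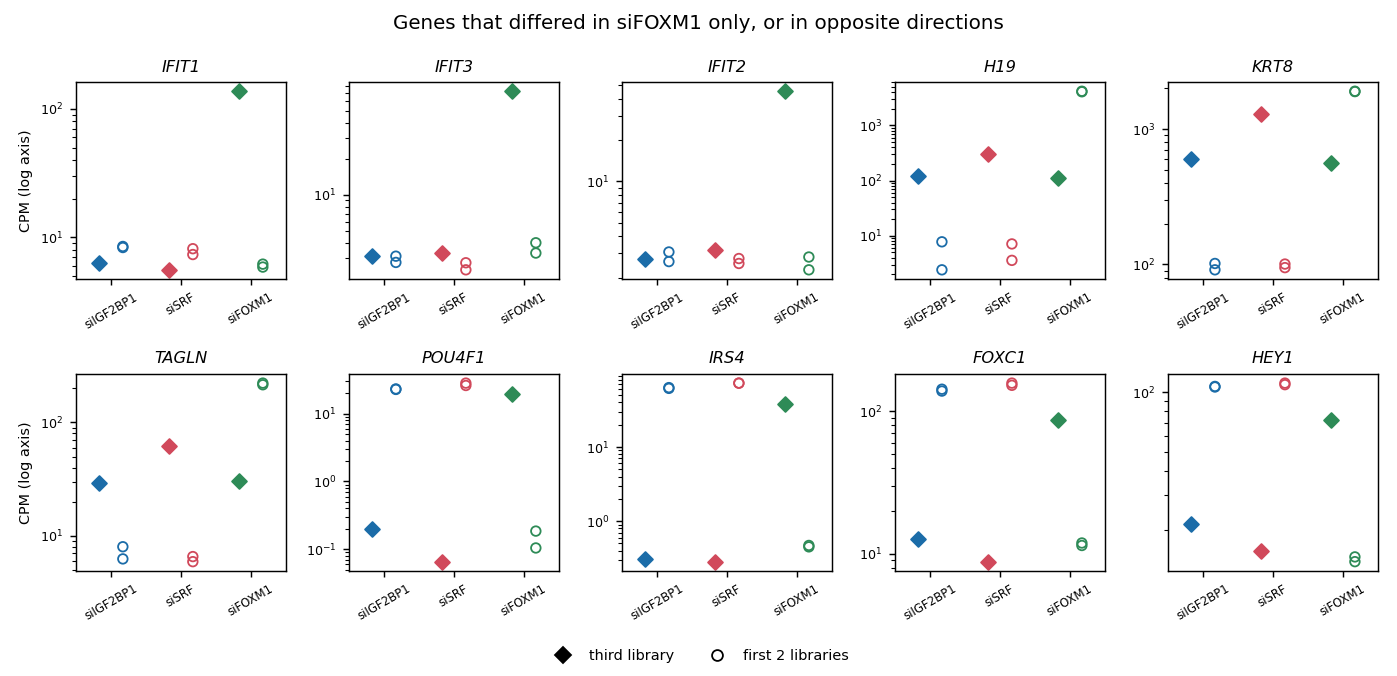
CPM on a log axis of 10 genes that differed in siFOXM1 only (IFIT1, IFIT3 and IFIT2) or in opposite directions, with the third library (diamond) left of the first 2 (open circles) in each siRNA. IFIT1 is at 137 CPM in the third siFOXM1 library and at 5.60 to 8.51 CPM in the 8 other libraries, and H19 is at 111 to 300.2 CPM in the third libraries against 2.42 to 4139 CPM in the first ones.

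The libraries of siControl and siIQGAP3 were not used to choose the genes, and there the third library was set against its first 2. A fit of 10 means (5 siRNAs by 2 library sets, 5 residual degrees of freedom) was used, in which the third library, alone in its set, is assumed to vary like the pairs of first libraries. The spread of those pairs may be technical, and 1 library has no spread of its own. The log2 differences below are thus given as sizes, without a p-value. A difference between library sets cannot be told apart from 1 library standing alone. In siControl, edgeR's quasi-likelihood test with Benjamini-Hochberg adjustment called 39.8% of 18760 genes higher and 35.9% lower in the third library. At 1 log2 unit the shares of the 18066 genes were 20.8% higher and 19.7% lower. The third siControl library lay 1.57 to 1.74 from the first 2 siControl libraries and 0.938 to 0.941 from the siIQGAP3 libraries, so it stood apart from its own group more than the third library of any knockdown did. Its embryonal carcinoma markers summed to 4228 CPM, against 1481 and 950.3 CPM in the first 2, and its fibroblast markers to 2019 CPM, against 7697 and 8974 CPM. The part of these in the siControl results was not tested.

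The genes alike and higher in the knockdowns were higher in the third siControl library too, while the genes alike and lower were not lower as a set. Of the 228, 163 (71.5%) were at least 1 log2 unit higher in the third siControl library, beside 20.8% of all genes, and 12 (5.26%) were at least 1 log2 unit lower. Of the 237, 59 (24.9%) were lower, beside 19.7% of all genes, and 90 (38.0%) were higher, beside 20.8%. ICAM1 stood at 137 CPM in the third siControl library, against 5.66 and 4.10 CPM in the first 2, a log2 difference of 4.80. FOS stood at 16.4 CPM, against 358 and 418 CPM, a log2 difference of -4.56. CYP26A1 stood at 0.149 CPM, against 4.30 and 2.69 CPM, a log2 difference of -4.53.

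Other leading genes differed in another direction, or by less, in the third siControl library. SOX2 stood at 176 CPM in the third siControl library, against 59.3 and 35.7 CPM in the first 2. It was higher there by 1.89 log2, where the third libraries of the knockdowns were lower. SOX3 and GDF3 were likewise higher in the third siControl library, by 4.13 and 2.08 log2. CYP26B1 stood at 4.74 CPM, against 4.87 and 4.48 CPM (0.02 log2), and TNFSF10 at 0.597 CPM, against 0.586 and 0.272 CPM (0.46 log2). Both genes were low in every siControl library. IFIT1 stood at 5.06 CPM, against 5.73 and 6.33 CPM (-0.25 log2).

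In siIQGAP3 the third library did not stand apart. Its libraries lay 0.286 to 0.297 from one another, and 0.493% of the 18066 genes were at least 1 log2 unit higher and 0.692% lower. No p-value is given here either, since 1 library was set against 2. Of the 228 genes alike and higher in the knockdowns 0 were past 1 log2 unit in the same direction, and of the 237 alike and lower 3 were. ICAM1 stood at 107 CPM in the third siIQGAP3 library, against 110.2 and 106 CPM in the first 2.

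Differences among the 3 siRNAs were tested in the same 9 libraries with the library set as a covariate. The sets were not chosen on differences between siRNAs. The F test called 5 genes (0.0277%; edgeR's quasi-likelihood test, 2492 genes at an unadjusted p under 0.05): SRF, IGF2BP1, IQGAP3, MIR196A2 and OAS2. The edgeR adjusted p was 7.81e-06 for SRF, 0.00709 for IGF2BP1 and 0.00963 for IQGAP3. FOXM1, the target of siFOXM1, was not called (edgeR adjusted p = 0.526). The tables disagree on all 4 of these genes. With only the first 2 libraries of each siRNA the same test called 12329 genes, and without the third siFOXM1 library 8879. It called 306 without the third siSRF library, 5 without the third siIGF2BP1 library, 2 without either first siFOXM1 library and 1 without any of the other 4. DESeq2 called 1095. The first libraries of siSRF and siIGF2BP1 differed in 1217 of 18066 genes. All these calls count the first 2 libraries of a siRNA as separate, though their spread may be technical. With those 2 summed to 1 library, the test among siRNAs called 0 genes. The fit of 9 libraries also leaves the interaction of siRNA and library set in its residual. Neither 5 nor 12329 thus measures how far the siRNAs differ.

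MIR196A2, the gene of a microRNA within the HOXC cluster, was called there, but of the 9 libraries only the first siIGF2BP1 and siSRF ones held more than a trace. The third libraries hardly differed between siRNAs, and the siFOXM1 libraries did not differ between sets. It stood at 0 and 0.0219 CPM in the third libraries of siIGF2BP1 and siSRF, against 10.5 to 12.8 CPM in the first ones, and at 0 CPM in all siFOXM1 libraries. These reads cover the locus and do not measure the mature microRNA. Its main mature product in RefSeq, build GRCh38.p14, on the plus strand at chr12:53991762-53991783, is printed with the seed, bases 2 to 8, in capitals.
hsa-miR-196a-5p: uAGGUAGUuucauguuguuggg
OAS2, which makes the second messenger of antiviral RNA decay, stood at 0.716, 1.202 and 9.22 CPM in the third libraries of siIGF2BP1, siSRF and siFOXM1, against 0.151 to 0.352 CPM in the first siIGF2BP1 and siSRF libraries and 2.12 and 2.22 CPM in the first siFOXM1 ones (edgeR adjusted p = 0.0446).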

How the data were processed

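RNA was sequenced as paired reads of 100 bases from NTERA2 cells, in 15 libraries. The authors deposited a table of raw counts per gene, and a second table of normalised values, a signal equal to the count times 1 factor per library (tolerance 1e-06) for all but 9 of 20407 genes. STAR, SAMtools, featureCounts and GRCh37 are named in the submitters' processing notes; versions and the strand setting are not given in the sources used here.

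Counts were the values used here. TMM factors were computed over all 15 libraries, and edgeR (4.0.16) quasi-likelihood fits in R (4.3.3) were made on genes passing filterByExpr: 18066 in 9 libraries, with siRNA as a block, and 18760 in 15 libraries, with 10 means. Genes were called at a Benjamini-Hochberg adjusted p of 0.05. Log2 CPM used a prior count of 2. The scripts were tested on simulated data. Library totals were 35275570 to 44996064 counts, which limits values to counting error only for genes of few reads.

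The library sets, the members and 37 gene lists were chosen with earlier results of these data known, and the NF-kB list after the leading genes were seen. Named were the 4 siRNA targets, the 12 highest and 12 lowest genes alike in all 3 siRNAs, and up to 4 genes per direction and siRNA in 1 siRNA only. Genes alike had at least 5 CPM in a library set, and genes in 1 siRNA only had it within that siRNA. Genes called in the siRNA test and leading list members were named without that minimum. The opposite genes and some list examples were added after their values were seen. Alternatives used DESeq2 (1.42.0), limma (3.58.1), other scalings, filters, folds and prior counts, summed first libraries and each library left out.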

Additional observations from a re-analysis of the deposited data

How the results depend on the processing

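The calls over siIGF2BP1, siSRF and siFOXM1 depended most on how the first libraries were counted: with the first 2 of each siRNA summed, 0 genes were higher and 1 lower in the third libraries, and the test among the 3 siRNAs called 0. Leaving out 1 library gave 1974 to 5772 higher, 2485 to 5963 lower and 1 to 8879 genes in the test among siRNAs, with the upper ends all without the third siFOXM1 library. That test called 1095 genes with DESeq2, 2 with no library set in the fit and, in an alternative chosen after seeing the data, 12329 in the first libraries only. Other tools, scalings and filters gave 2955 to 4335 higher and 2394 to 3814 lower, and a fit without the siRNA term gave 2645 higher and 3218 lower.

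At 1.5-fold, 574 genes were alike and higher and 738 alike and lower, and at 4-fold 63 and 46. At 4-fold, 0 genes differed in siIGF2BP1 only, 6 in siSRF only and 65 in siFOXM1 only, and with a limit of 0.25 log2 in the other siRNAs 21, 57 and 125. With a prior count of 8, 47 genes differed in siIGF2BP1 only. Leaving out a first library gave 220 to 237 alike and higher and 228 to 245 alike and lower. Both groups also ask for a call in the blocked fit, which called 0 genes higher and 1 lower with the first 2 libraries summed. No calls of single genes are given for siControl and siIQGAP3, where 1 library was set against 2. The shares of genes called in siControl rest on that same contrast, with a pair whose spread may be technical. They do not measure a difference between library sets.

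Of 164 named genes called, 163 lost the call with summed first libraries, 25 without the third siIGF2BP1 library, 20 without the third siSRF library and 0 without the third siFOXM1 library; with DESeq2 164 kept it. The blocked difference of IFIT1 was -0.44 to 2.785 with 1 library left out, the lower value without the third siFOXM1 library, which leaves out the siRNA in which it was higher. The other causes were not tested. No paired analysis was possible because the columns carry no replicate numbers. Depth limits the genes near 0 CPM, and no label gives a culture, day or run for the third libraries, so culture and handling cannot be told apart.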
